A study of Homo sapiens with 6 samples.

Results

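The genes described here are EGR1, EGR3, NR4A1, NR4A2, NR4A3, KLF4, KLF6, KLF10, IER2 and ARC, early response genes whose transcripts can appear within the first hour of a stimulus. They were chosen by name, and all probe sets annotated to them were taken, which gave 20 probe sets for 10 genes among 22215 tested probe sets and 11963 named genes. Their transcripts were measured on Affymetrix human expression arrays in SH-SY5Y, a human neuroblastoma line widely used as a model of neuronal cells, after 4 h of exposure. In 3 flasks the medium held free bilirubin (Bf) at 140 nM (Bf 140 nM), and in 3 flasks the solvent dimethyl sulfoxide alone at 0.6% (DMSO 0.6%). By the protocol the growth medium was exchanged for fresh experimental medium in both groups at the start, and the bilirubin was itself dissolved in DMSO. Arrays of untreated cells and of other exposure times were not analysed here.

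Early response genes are transcribed without new protein synthesis, because the factors that switch them on are already present in the cell and are activated by phosphorylation. Growth factors and depolarisation reach them through the ERK kinases, the serum response factor SRF with its ELK partners, and the cAMP response element binding protein CREB. EGR1 and EGR3 are zinc finger transcription factors, NR4A1, NR4A2 and NR4A3 are orphan nuclear receptors, and KLF4, KLF6 and KLF10 are Kruppel-like zinc finger factors. IER2 is a small nuclear protein and ARC is a cytoskeleton-associated protein that acts at synapses. Transcripts of this class are short-lived in general, so that a level at 4 h reports recent transcription.

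Promoter sequence was available for 6 of the 10 genes in the RefSeq table (GRCh38.p14), as 7 windows from 250 bases before to 50 bases after a transcription start, of which NR4A1 had 2. The part before the start is shown for EGR1 and NR4A3, whose windows held the most matches to the motifs of SRF and CREB. Capitals mark CArG boxes, the motif of SRF, and the short CRE motif TGACG of CREB on either strand. The EGR1 stretch lies at chr5:138465229-138465478 and the NR4A3 stretch at chr9:99821635-99821884, both on the plus strand.
EGR1: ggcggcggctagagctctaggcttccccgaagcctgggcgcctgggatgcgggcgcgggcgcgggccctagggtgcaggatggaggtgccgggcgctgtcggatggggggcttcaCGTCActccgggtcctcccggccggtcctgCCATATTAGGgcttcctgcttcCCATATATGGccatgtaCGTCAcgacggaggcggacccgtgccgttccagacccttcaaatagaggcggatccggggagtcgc
NR4A3: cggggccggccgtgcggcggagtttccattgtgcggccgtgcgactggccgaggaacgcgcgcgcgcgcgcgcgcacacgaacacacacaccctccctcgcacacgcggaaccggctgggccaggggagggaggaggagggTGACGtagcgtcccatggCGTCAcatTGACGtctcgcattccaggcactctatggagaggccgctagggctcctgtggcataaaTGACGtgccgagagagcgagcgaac

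The EGR1 window held a CArG box from base -105 to -96 and another from -83 to -74, counted from the start. A CArG box was found in 1 of the 7 windows, that of EGR1, and in 1.29% of all 35116 promoter windows of the same length. The short CRE motif was found in 4 of the 7 windows, with 4 copies in NR4A3, 2 each in EGR1 and KLF4 and 1 in IER2, while 24.6% of all windows held at least 1. The GC box GGGCGG, a site of Sp and Kruppel-like factors, was found in 5 of 7 windows against 44.95% of all. The full CRE (TGACGTCA, which contains the short motif), the EGR site GCGTGGGCG, the NR4A site AAAGGTCA and the TATA box TATAAA were in none of the 7 windows, and in 1.85%, 0.795%, 1.22% and 11.5% of all. Each motif was searched on both strands. A match describes the letters and not the occupancy of a site.

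Levels are given on the normalised log2 scale, and each difference is the Bf 140 nM mean less the DMSO 0.6% mean. Any pair of arrays correlated at 0.971 to 0.996 across probe sets, and the array medians were 7.85 to 8.0. DMSO replicate 3 stood apart, with the lowest median and a beta-actin 3' minus 5' probe set difference of 2.21, against 0.11 to 0.89 on the other arrays. The GAPDH difference, which like that of beta-actin reads how complete the labelled transcripts are, was 1.30 on DMSO replicate 3 and 0.10 to 0.38 elsewhere. In the check of the cell type, 13 of 16 noradrenergic neuroblast markers lay above the median probe set, with DBH at 12.87 in Bf 140 nM and 12.72 in DMSO 0.6%, while TH, HAND2 and SYP did not. Of 15 mesenchymal or Schwann-like markers 9 lay above it, among them VIM and TWIST1, while CD44, PRRX1, S100B, SOX10, GFAP and COL1A2 lay below. The array medians over the latter list ranged from 8.25 to 8.57 in Bf 140 nM and from 8.30 to 8.58 in DMSO 0.6%.

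In the unpaired fit the 10 genes did not differ between Bf 140 nM and DMSO 0.6% beyond the spread between arrays. None of their 20 probe sets passed an adjusted p of 0.10 by limma, and the share called over all tested probe sets was likewise 0%. At an unadjusted p under 0.05 there were 0 of the 20, against 17 (0.0765%) over all. That share is far below the nominal level, so the unpaired p-values ran high and a count of 0 says little about these genes. With a term for the replicate number (the replicate block) there were 92 over all and still 0 of the 20. SEs and intervals are from the unpaired fit, and for EGR1 201694_s_at the SE was 0.28 there and 0.18 with the block. Every one of the 20 had an adjusted p of 1.00. The 95% confidence intervals of the single probe sets nevertheless bounded the ratios on this scale between 0.704 and 1.93 for all 20, so that 2-fold changes in either direction lay outside them. The same was true of 97.8% of all probe sets and is not particular to these genes. For the dimmer probe sets the scale is compressed and understates folds. The cells were measured in bulk, so a change in the number of expressing cells cannot be told apart from a change in RNA per cell.

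Most differences were small and positive. They were above 0 for 15 of the 20 probe sets (75.0%), where 63.2% of all tested probe sets were above 0. With each gene represented by its brightest probe set, 9 of 10 genes were above 0 against 63.7% of all genes. Their median difference was 0.07, beside 0.03 over all genes. It was 0.03 without Bf 140 nM replicate 1 and 0.18 without DMSO replicate 2. With median centring it was 0.04, beside -0.0009 over all genes. Over the 6 genes that have a probe set not ending in _s_at or _x_at it was -0.0003. The groups did not overlap for 1 probe set that was higher in Bf 140 nM, where 1.68% of all probe sets were of this kind, and for 1 that was lower, against 0.981%. The former belonged to NR4A2 and the latter to KLF6. Without DMSO replicate 3 the number higher without overlap was 3 of 20, against 4.85% of all, and the number lower was 1, against 3.89%.

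**Figure D1:**
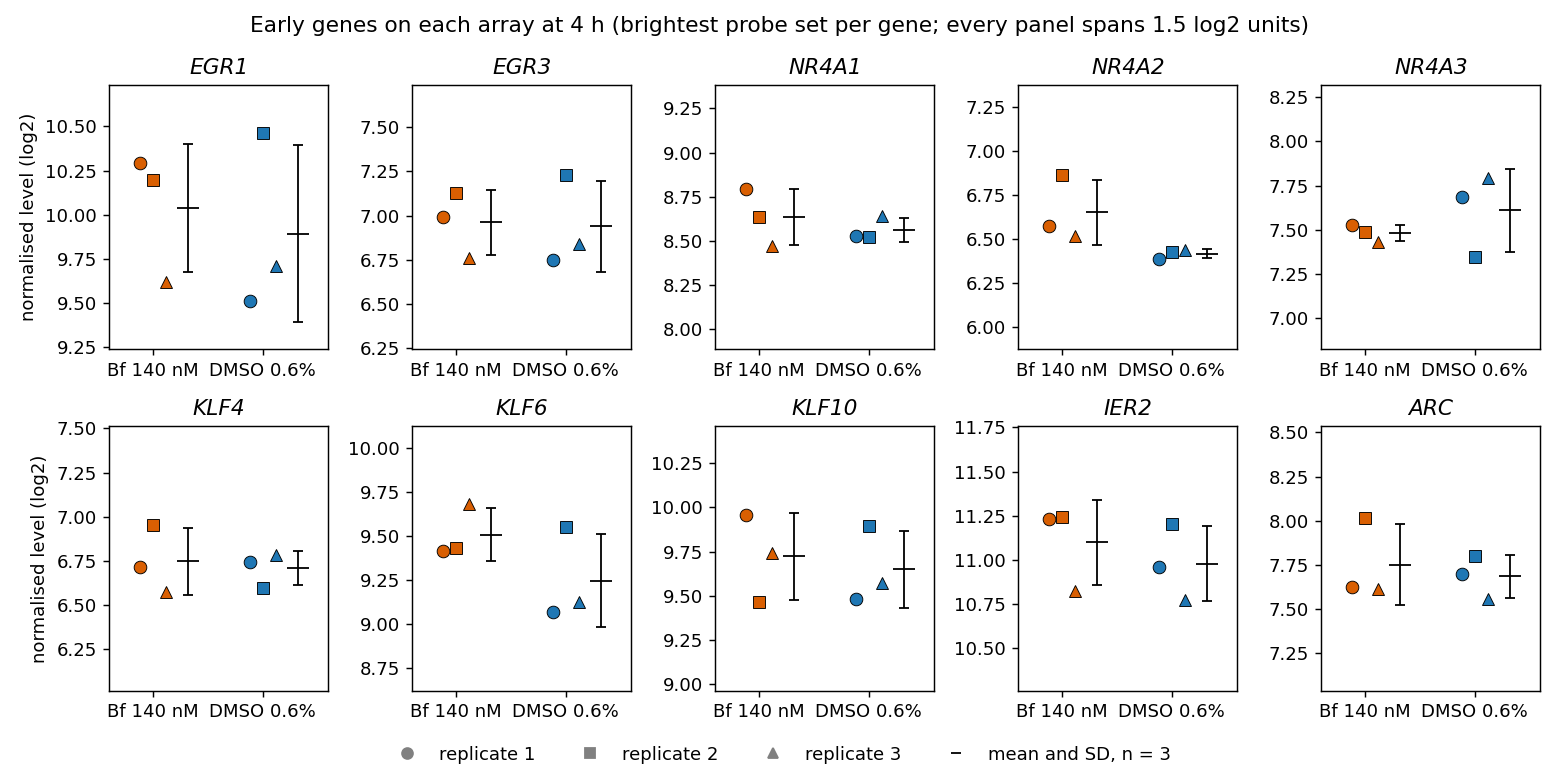
Normalised level (log2) of the brightest probe set of each gene on the 6 arrays, orange for Bf 140 nM, blue for DMSO 0.6%, a marker shape for each replicate number, and bars for the mean and SD of 3 arrays. The groups overlap in every panel but that of NR4A2, whose 3 Bf 140 nM values (6.52 to 6.86) lie above its DMSO 0.6% values (6.39 to 6.44).

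EGR1, the prototype of the serum-inducible zinc finger factors, was the gene of this group with the widest spread at its bright probe set 201694_s_at. Its levels in Bf 140 nM were 10.29, 10.20 and 9.62 for replicates 1, 2 and 3. In DMSO 0.6% they were 9.51, 10.46 and 9.71. The highest and the lowest of the 6 values were thus both control arrays, and the groups overlapped. The means were 10.04 ± 0.36 and 9.89 ± 0.50 (SD, n = 3 each), a ratio of 1.10 with a 95% confidence interval of 0.704 to 1.74. The difference was 0.78 in replicate 1, -0.26 in replicate 2 and -0.09 in replicate 3, while the mean difference ran from -0.05 without DMSO replicate 1 to 0.43 without DMSO replicate 2. The other EGR1 probe set, 201693_s_at, lay between the percentiles 36.7 and 47.8 of the arrays and had a difference of 0.04 (SE 0.12). It ranged over only 0.35 across the 6 arrays, where 201694_s_at ranged over 0.95.

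EGR3, a related factor that is itself a target of early signalling, was measured by a dim probe set at the percentiles 17.4 to 32.3. Its levels were 6.99, 7.13 and 6.76 in Bf 140 nM and 6.75, 7.23 and 6.84 in DMSO 0.6%. As for EGR1, the highest and the lowest arrays were DMSO replicates 2 and 1. The difference was 0.02 (SE 0.16), a ratio of 1.02 with an interval of 0.783 to 1.32. Its sign turned with array median centring (-0.01), when the beta-actin difference entered the fit (-0.0068) and without DMSO replicate 3 (-0.03). It also turned without Bf 140 nM replicate 2 (-0.06) and without DMSO replicate 1 (-0.07).

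Among the orphan nuclear receptors, NR4A2 (Nurr1), a factor of dopaminergic neurons, had the lowest unadjusted p of the 20 probe sets. At 204621_s_at its levels were 6.58, 6.86 and 6.52 in Bf 140 nM. In DMSO 0.6% they were 6.39, 6.43 and 6.44, all below the treated arrays. The means of 6.65 ± 0.18 and 6.42 ± 0.03 (SD, n = 3 each) gave a ratio of 1.18 with an interval of 0.972 to 1.42. The difference was positive in all 3 pairs of equal replicate number, at 0.19, 0.43 and 0.08, and stayed between 0.13 and 0.30 when any array was left out. The adjusted p was 1.00 by limma with and without the replicate block. The other probe sets of NR4A2 were dimmer still: 204622_x_at had a difference of 0.15 (SE 0.10) and 216248_s_at one of -0.06 (SE 0.11). The 3 lay at the mean percentiles 11.1, 5.92 and 2.95, so that all readings of this gene were near the bottom of the array.

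NR4A1 (Nur77), a receptor induced by growth factors and stress, was the brightest-read of the trio in rank, with 202340_x_at at the percentiles 58.6 to 64.5. Its levels were 8.79, 8.64 and 8.47 in Bf 140 nM and 8.53, 8.52 and 8.64 in DMSO 0.6%. Replicate 1 of Bf 140 nM was the highest and replicate 3 the lowest. The difference was 0.07 (SE 0.11), with an interval of the ratio from 0.874 to 1.26. The probe sets 210226_at and 211143_x_at had differences of -0.02 (SE 0.11) and 0.01 (SE 0.12). NR4A3 (NOR-1), the remaining member of the family, was the only gene with a negative difference at its brightest probe set. At 209959_at its levels were 7.52, 7.49 and 7.43 in Bf 140 nM and 7.69, 7.35 and 7.80 in DMSO 0.6%. The treated arrays lay within the range of the controls, with a difference of -0.13 (SE 0.13). It was -0.04 without DMSO replicate 3 and -0.26 without DMSO replicate 2. The other NR4A3 probe sets did not share a sign: 207978_s_at had 0.08 (SE 0.12) and was higher in all 3 pairs, and 216979_at had -0.06 (SE 0.12). The former was 0.0089 without DMSO replicate 3 and 0.02 without Bf 140 nM replicate 1.

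**Figure D2:**
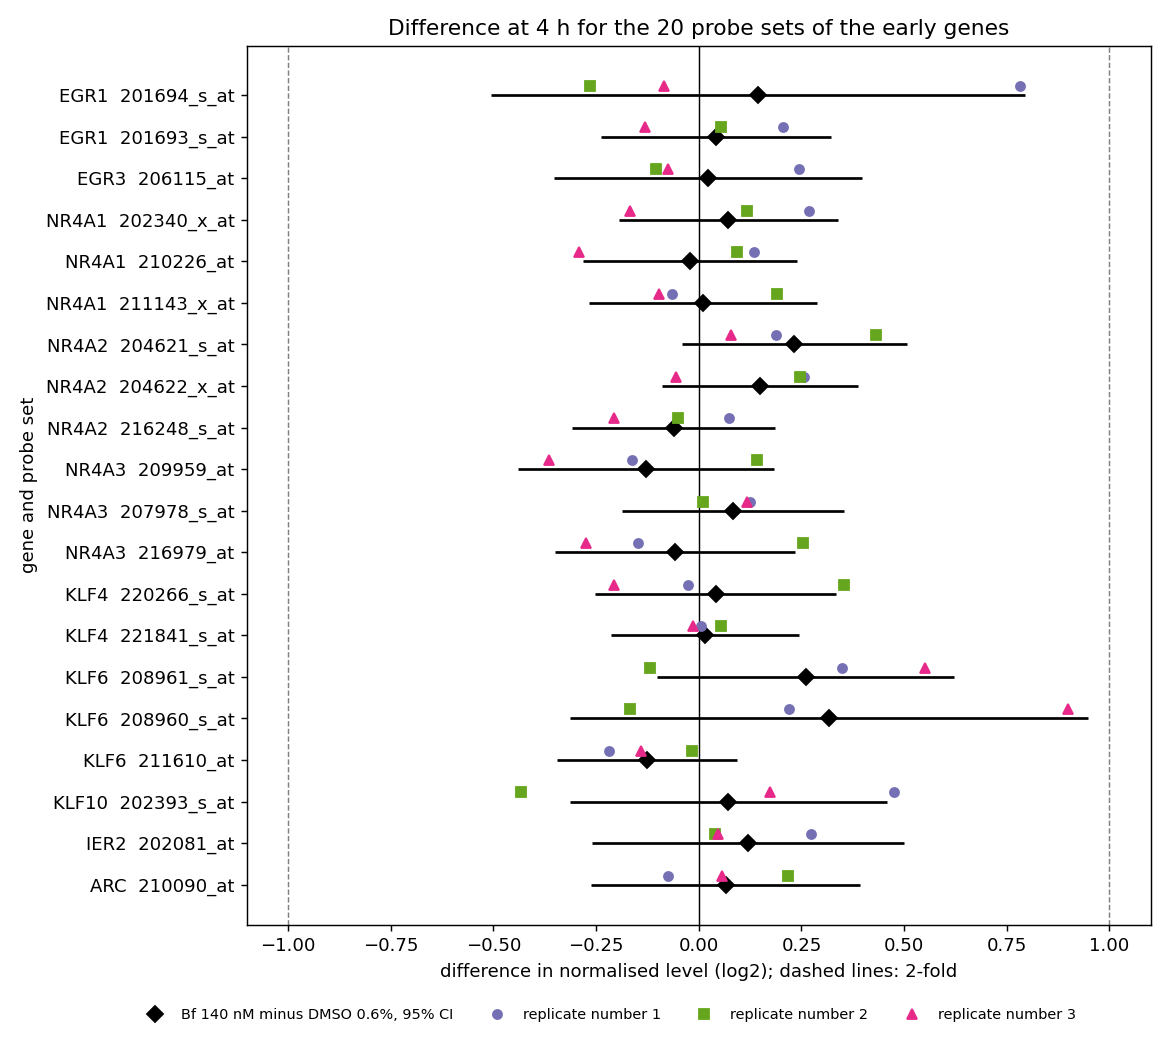
Difference in normalised level (log2, Bf 140 nM minus DMSO 0.6%) for the 20 probe sets of the 10 genes, with diamonds for the difference, lines for the 95% confidence interval of limma, and coloured markers for the difference within each replicate number; dashed lines mark 2-fold. All 20 intervals include 0 and lie within the dashed lines, and the widest excursions of a single pair are 0.90 (KLF6, replicate 3) and 0.78 (EGR1, replicate 1).

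KLF6, a Kruppel-like tumour suppressor that responds to injury, had the largest difference of the 10 genes at their brightest probe sets. At 208961_s_at its levels were 9.41, 9.43 and 9.68 in Bf 140 nM. In DMSO 0.6% they were 9.07, 9.55 and 9.13. DMSO replicate 2 lay above 2 of the treated arrays, so the groups overlapped. The means of 9.51 ± 0.15 and 9.25 ± 0.26 (SD, n = 3 each) gave a ratio of 1.20 with an interval of 0.932 to 1.54. The difference was 0.35, -0.12 and 0.55 in replicates 1, 2 and 3, and the mean difference ran from 0.17 without DMSO replicate 1 to 0.41 without DMSO replicate 2.

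The second KLF6 probe set gave a like difference that rested on a single array. At 208960_s_at the levels were 8.98, 9.001 and 8.89 in Bf 140 nM and 8.76, 9.17 and 7.996 in DMSO 0.6%. DMSO replicate 3, the array with the large 3' minus 5' differences, was far below the others. The difference was 0.32 (SE 0.27) with all arrays and -0.0057 without it. With the beta-actin 3' minus 5' difference as a term in the fit it was 0.17. The third probe set, 211610_at, went the other way without overlap, with 7.53, 7.57 and 7.55 in Bf 140 nM and 7.75, 7.58 and 7.69 in DMSO 0.6%. Its difference was -0.13 (SE 0.09), negative in all 3 pairs, where 4.70% of all probe sets were lower in every pair. The probe sets of KLF6 thus did not share a direction.

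KLF10, an early target of TGF-beta signalling, had levels of 9.96, 9.46 and 9.74 in Bf 140 nM and 9.48, 9.90 and 9.57 in DMSO 0.6%. Within replicate numbers it differed by 0.48, -0.43 and 0.17. These opposite values left a difference of 0.07 (SE 0.17), with an interval of the ratio from 0.804 to 1.37. KLF4, the pluripotency-associated member, was read near the bottom of the array, with 220266_s_at at the percentiles 12.6 to 19.6 and 221841_s_at at 1.32 to 3.89. At the former the levels were 6.71, 6.95 and 6.57 in Bf 140 nM and 6.74, 6.60 and 6.78 in DMSO 0.6%. The highest and the lowest were both treated arrays. The differences of the probe sets were 0.04 (SE 0.13) and 0.02 (SE 0.10).

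IER2, read by 202081_at, was the highest-ranked of the 20 probe sets on all arrays, at the percentiles 88.7 to 93.9. Its levels were 11.23, 11.24 and 10.82 in Bf 140 nM. In DMSO 0.6% they were 10.96, 11.20 and 10.77. The replicate 3 array was the lowest in each group. The difference was 0.12 (SE 0.16), a ratio of 1.09 with an interval of 0.835 to 1.41. It was positive in all 3 pairs, at 0.27, 0.04 and 0.05. It was 0.02 without DMSO replicate 3, 0.26 without Bf 140 nM replicate 3 and 0.06 when the beta-actin difference entered the fit. Probe sets higher in all 3 pairs numbered 3 of the 20, those of IER2, NR4A2 and NR4A3 named above, while 8.96% of all probe sets were of this kind. With pair 3 left out, 8 of the 20 were higher in both remaining pairs, against 22.1% of all, and 1 was lower in both, against 15.6%. ARC, whose transcript marks recently active neurons, had levels of 7.62, 8.01 and 7.61 in Bf 140 nM and 7.70, 7.80 and 7.56 in DMSO 0.6%. Its difference was 0.07 (SE 0.14), and without replicate 2 of Bf 140 nM it was -0.07.

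The 10 genes also varied between the arrays of each group. Most were above their own mean on Bf 140 nM replicates 1 and 2. Most were below it on Bf 140 nM replicate 3 and on DMSO replicates 1 and 3. On DMSO replicate 2, NR4A1, NR4A2, NR4A3 and KLF4 were below their mean, while EGR1 stood 0.50 above its own. Of the 10 genes, 7 were above their own mean on Bf 140 nM replicate 1, 8 on replicate 2 and 2 on replicate 3. In DMSO 0.6% these numbers were 2, 6 and 3. The mean deviation of the 10 genes, less that of all genes, was 0.07, 0.15 and -0.13 on the Bf 140 nM arrays and -0.13, 0.08 and -0.04 on the DMSO 0.6% arrays. Less the shift of each array's median it was 0.06, 0.09 and -0.07, and -0.17, 0.06 and 0.02, so that DMSO replicate 3 was low on one scaling and not on the other. The median difference over the 10 genes was 0.26 in replicate 1, 0.08 in replicate 2 and -0.01 in replicate 3, beside 0.03, -0.02 and 0.06 over all genes. The genes higher in Bf 140 nM numbered 7, 6 and 5 of 10. The share of all genes above their mean on an array, or higher within a replicate number, is not given here.

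**Figure D3:**
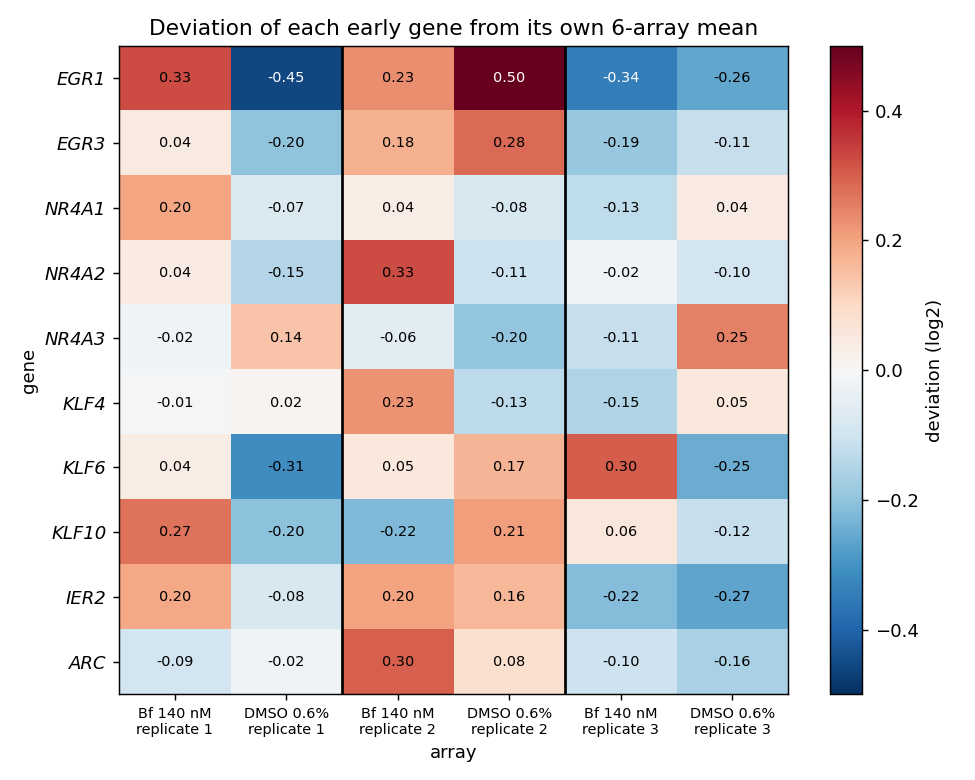
Deviation (log2) of each gene's brightest probe set from its own mean over the 6 arrays, with the arrays of equal replicate number side by side; red is above the mean and blue below. EGR1, EGR3 and IER2 are blue on DMSO replicate 1 and on both replicate 3 arrays and red on the other 3.

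The spread between replicate arrays was not uniform over the group. The within-group SD was 0.44 for EGR1 201694_s_at and 0.42 for KLF6 208960_s_at, at the percentiles 94.9 and 94.3 of all tested probe sets, whose median was 0.16. For KLF10, IER2 and EGR3 it was 0.23, 0.23 and 0.22, at the percentiles 74.5, 73.2 and 72.2. The steadiest probe sets were KLF6 211610_at and KLF4 221841_s_at, at 0.06 and 0.08. The median percentile was 42.6 over the 20 probe sets and 64.6 over the brightest probe set of each gene, of which 5 of 10 lay above the percentile 65. By brightest probe sets it was 50.6 over all genes and 66.5 over the kinases and factors that switch early genes on. For EGR and KLF relatives and cofactors it was 40.3, and for early response genes of other families 68.2. The value of the 10 genes is thus not particular to them.

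**Figure D4:**
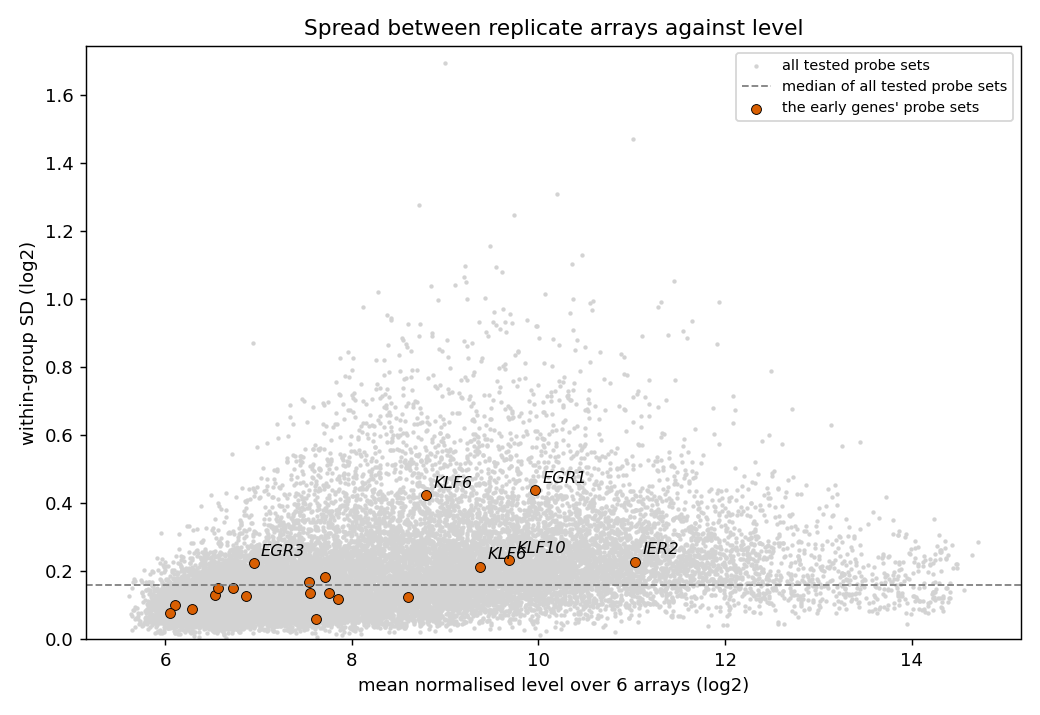
Within-group SD (log2) against the mean level over 6 arrays (log2), with grey points for all tested probe sets, orange points for the 20 probe sets of the early genes, and a dashed line at the median SD of 0.16; probe sets above the 65th percentile of SD are named. EGR1 (0.44) and a probe set of KLF6 (0.42) lie far above the line, and most of the others lie near or below it.

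The pathway around these genes was read from 3 lists. Over all genes 63.7% were above 0, and the median difference was 0.03. Of the kinases and factors that switch early genes on, 25 of 29 had a probe set of their own, 19 were above 0 with a median of 0.06, and 0 passed the threshold in either direction by limma, with 0 at an unadjusted p under 0.05 in any of the 3 lists. With the replicate block MAP2K2 of this list (limma, unadjusted p = 0.0464) and FOS of the other early response genes (unadjusted p = 0.0357) were below it, both with an adjusted p of 1.00. The lowest unadjusted p belonged to CREB1, the CREB factor itself, with a difference of 0.21 (SE 0.13), and to MAP2K2, the ERK kinase MEK2, with 0.26 (SE 0.17). Without DMSO replicate 3 these differences were 0.11 and 0.12. Of the EGR and KLF relatives and cofactors 20 of 21 were measured, 11 above 0 with a median of 0.01, and again 0 passed. KLF13 was at 0.20 (SE 0.15) and the GC box factor SP3 at -0.18 (SE 0.19), the latter at -0.03 without that array and the former at 0.05 without Bf 140 nM replicate 3. NAB2, the corepressor that EGR1 itself induces, had 9.51 ± 0.10 against 9.53 ± 0.17 (SD, n = 3 each).

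Of the early response genes of other families 46 of 51 were measured, 36 above 0 with a median of 0.08, and 0 passed in either direction by limma. The median over all genes was 0.03, with 63.7% above 0. GADD45A, a growth arrest gene, was at 0.25 (SE 0.17) and ZFP36, which destabilises short-lived transcripts, at 0.16 (SE 0.10). GADD45A was at 0.09 without DMSO replicate 1 and at 0.42 without DMSO replicate 2. Without DMSO replicate 3 the medians of the 3 lists were -0.01, -0.02 and 0.02, and that of the 10 genes was 0.04. The median over all genes was 0.01 without that array.

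The genes whose pattern over the 6 arrays was most like that of the group were found by the root mean square distance between centred log2 values, among 6843 brighter genes. Those nearest to the mean of the 10 were FARS2, the mitochondrial phenylalanyl-tRNA synthetase (0.03), TUBA4A (0.04), TPPP3 (0.04), RAB11FIP5 (0.04) and CPVL (0.04), where the median distance was 0.21. This mean profile deviated by a root mean square of only 0.11, so that its neighbours varied little as well. EGR1 alone, whose profile deviated by 0.37, was nearest to the transcription factor SOX9 (0.16), the ERK phosphatase DUSP5 (0.20), SEL1L3 (0.21), DRAP1 (0.21) and S100A10 (0.22), with a median distance of 0.41. With 6 arrays these distances describe the arrays at hand.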

How the data were processed

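The deposited table holds log2 values of 22277 probe sets on 6 arrays. The authors computed cell intensities with GCOS and applied variance-stabilizing normalization (justvsn, R version 2.5.0), a scale that approaches log2 at high intensity and flattens at low intensity. The summary of probes to a probe set was not described in these sources. A highest value of 15.2, above the largest natural logarithm a scanner reading allows (11.1), set the log base. Array quality was read from the 62 controls, which were not tested, and detection calls were not used. Arrays carry no read depth, and their number limits the precision.

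Gene symbols came from the platform annotation and were updated by Entrez identifier. Of 22215 tested probe sets 19064 had 1 symbol, 1043 had several and 2108 had none. Of the members' probe sets 13 end in _s_at or _x_at and may bind related transcripts.

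Groups were compared with limma (version 3.58.1, R version 4.3.3), two-sided, unpaired, with Benjamini-Hochberg adjustment over all tested probe sets at 0.10, the level of the study's SAM analysis, which was not rerun. Percentiles rank a probe set among those of its array and do not order genes, since probe affinities differ. Same-numbered arrays of the groups deviated from their group means with correlations of 0.60, 0.23 and 0.57 over the probe sets. Each was above the minimum of 0.1, so the numbers were taken to pair the arrays in the replicate block. Arrays of unequal number lay between -0.55 and 0.26, the latter for Bf 140 nM replicate 1 with DMSO replicate 2, above the 0.23 of the replicate 2 pair. Bf 140 nM replicate 2 with DMSO replicate 1 was at 0.103, also above the minimum. The minimum alone thus does not single out the same-numbered arrays. The treatment protocol in the labels gives separate flasks and independent replicates.

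All 10 members and their probe sets were named, together with, per list, the genes past the threshold or failing any the 2 of lowest unadjusted p, and the 5 genes nearest in pattern. NAB2, FOS and the other genes named for sharing the EGR1 pattern were chosen after their values were seen. Members and lists were chosen with earlier results of these data known. The fit was also run on simulated data with independent noise on each array, which lack the deviations shared by same-numbered arrays. No result here rests on that run. Alternatives were the replicate block, quantile normalization, median centring, a filter on level, a trended robust prior, the beta-actin difference as a covariate and leaving out each array.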

Additional observations from a re-analysis of the deposited data

How the results depend on the processing

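Under each of the 12 alternatives 0 probe sets of the 10 genes, and 0 of all those tested, passed the threshold by limma, where the filter on level left 6 of the 20. With the replicate block 92 probe sets had an unadjusted p under 0.05, against 17 without it, and 0 of the 20 in either fit. The lowest adjusted p of a named difference under any alternative was 0.998. The median over the 10 genes stays at 0.07 with the replicate block by construction. It ranged from 0.0343 to 0.18 when any array was left out, the latter without DMSO replicate 2. It was 0.04 with quantile normalization and with median centring, 0.12 over the 5 genes above the median level, and -0.0003 over the 6 genes left without probe sets ending _s_at or _x_at. Counts made without pair 3 and without DMSO replicate 3 were chosen after seeing the data: 8 of the 20 probe sets were higher in each pair left, against 22.1% of all, and 1 lower, against 15.6%. Without overlap 3 were higher, against 4.85%, and 1 lower, against 3.89%.

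Of 298 values of 26 differences 29 turned sign. The replicate block, the filter on level and the trended robust prior leave a difference unchanged by construction. Their values are among the 298 but could not turn. With median centring EGR3 (-0.0107), NR4A1 211143_x_at (-0.0226) and KLF4 221841_s_at (-0.017) did, with quantile normalization EGR1 201693_s_at (-0.0054) and NR4A1 211143_x_at (-0.0107), and with the beta-actin covariate EGR3 (-0.0068), NR4A1 210226_at (0.0025) and 211143_x_at (-0.0183). When any array was left out, the ranges that crossed 0 were -0.0475 to 0.43 and -0.0291 to 0.15 for EGR1, -0.0727 to 0.17 for EGR3, -0.0082 to 0.15, -0.0645 to 0.0475 and -0.0636 to 0.10 for NR4A1, -0.16 to 0.028 for NR4A3 216979_at, -0.0614 to 0.13 and -0.0211 to 0.0584 for KLF4, -0.0057 to 0.58 for KLF6 208960_s_at, -0.0459 to 0.20 for KLF10 and -0.0671 to 0.13 for ARC. The cause was not tested.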

Other observations

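EGR3 and IER2 lay on the same side of their own mean as EGR1 on all 6 arrays, high on replicate 1 of Bf 140 nM and on both replicate 2 arrays and low on the others. This pattern was noticed in the data and then counted. Besides these 2 of the other 9 genes (22.2%), it was shared by 363 of 11962 named genes (3.03%) and by 83 of the 6843 brighter ones (1.21%). Among early response genes of other families it was shared by 6 of 46 (13.0%), the AP-1 subunit FOS, the ERK phosphatase DUSP5, the growth factor HBEGF, the kinases PLK2 and SIK1 and the circadian repressor BHLHE40. The share was lower among the brighter genes than over all, so dimmer genes shared the pattern more often. EGR3, BHLHE40, SIK1 and FOS lay at the mean percentiles 23.3, 28.4, 34.1 and 40.4, below the median probe set. IER2, DUSP5, HBEGF and PLK2 lay above it. The count takes the sign of each deviation and not its size. BHLHE40 ranged over only 0.16 and HBEGF over 0.31 across the 6 arrays, where FOS ranged over 1.12. FOS stood at 7.98, 8.17 and 7.06 in Bf 140 nM and at 7.33, 7.86 and 7.05 in DMSO 0.6%. Of the signalling list 1 of 25 shared it, the ERK kinase gene MAP2K2, and of the EGR and KLF relatives 1 of 20, KLF11. In this pattern the groups differ in replicate 1 and lie on the same side in replicates 2 and 3, and all these genes were read on the same 6 arrays. The other probe set of EGR1, 201693_s_at, was on the same side as the brighter one on only 2 of 6 arrays.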
